A study of Mus musculus with 10 samples.

Results

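Of 8233 CpG-rich promoters of protein-coding genes on mouse chromosomes 1 to 19, 233 (2.83%, 95% Wilson interval 2.49 to 3.21%) had no accessible site near any of their starts. They are called site-free promoters here. They were chosen by a rule that joins base composition with measured site positions. In the mm10 genome, the 500 bp on either side of the 5′ end of the gene record had a GC content of at least 55% and an observed to expected CpG ratio of at least 0.6, and no site lay within 1 kb of any annotated transcript start. The CpG ratio divides the number of CpG dinucleotides by the number that the C and G content of the same window would give. The absence of a site near a start is therefore the selection and not a finding, and everything below is a description without a test.

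Most vertebrate genes that are used in all cells start in CpG islands, stretches of DNA in which CpG dinucleotides have been kept because they are unmethylated in the germline. Such promoters are commonly free of nucleosomes and bound by CpG-reading proteins, among them subunits of the KMT2 (COMPASS) methyltransferases that contain Ash2l and place methyl groups on lysine 4 of histone H3. A minority of CpG islands is closed in somatic cells, as known for promoters of germline genes, which are often DNA methylated there, and for promoters of developmental regulators, which are often covered by Polycomb proteins.

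The sites came from ATAC-seq, in which a transposase cuts and tags open chromatin, in immortalized mouse embryo fibroblasts (iMEF) of 1 clone. In all groups, both floxed alleles of endogenous Ash2l had been deleted through Cre-ER, and the cells lived on a lentivirally introduced human ASH2L with an N-terminal FKBP12F36V tag (FKBP-HA2-ASH2L), which the degrader dTAG-13 removes. The 5 groups had 2 libraries each. The control group was untreated and received the solvent ethanol, and in the others dTAG-13 was present for a time of 30 min, of 4 h, of 8 h or of 24 h. The 10 libraries were represented by 1 list of 153924 positions identified in any of them, without values per library, so that sequencing depth, replicate error and any change with dTAG-13 could not be given. The intervals given here cover counting of genes only. They take genes as independent, although 129 of the site-free promoters stood in runs of at least 2 neighbours, so that they may be too narrow.

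The letters of some of these promoters show what kind of sequence was without a site. Shown are 8 of the 165 site-free promoters with an entry in the RefSeq table (build GRCm38.p6), each with 250 bases before and 50 after an annotated start, on the strand of the gene, with every CpG in capitals. Sycp3, Mael and Ddx4 are germline genes, Rims1 and Sox1 are neural genes, and Srsf1, Hnrnpu and Ranbp1 are genes of general cell function that lie in long stretches without sites.

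Sycp3 (chr10:88459337-88459636, plus strand): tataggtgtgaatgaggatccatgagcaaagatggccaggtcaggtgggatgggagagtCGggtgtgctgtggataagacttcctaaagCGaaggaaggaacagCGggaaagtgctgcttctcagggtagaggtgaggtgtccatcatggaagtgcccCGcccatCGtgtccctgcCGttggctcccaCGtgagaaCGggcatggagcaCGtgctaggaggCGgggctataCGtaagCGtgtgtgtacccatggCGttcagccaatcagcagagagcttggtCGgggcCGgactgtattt
Mael (chr1:166238695-166238994, minus strand): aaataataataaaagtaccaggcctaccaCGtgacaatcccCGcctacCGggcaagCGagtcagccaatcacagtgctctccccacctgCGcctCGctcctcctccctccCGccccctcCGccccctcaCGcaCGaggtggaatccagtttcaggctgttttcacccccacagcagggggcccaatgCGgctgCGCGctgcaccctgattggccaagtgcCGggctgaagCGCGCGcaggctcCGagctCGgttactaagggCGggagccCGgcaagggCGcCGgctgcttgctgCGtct
Ddx4 (chr13:112652261-112652560, minus strand): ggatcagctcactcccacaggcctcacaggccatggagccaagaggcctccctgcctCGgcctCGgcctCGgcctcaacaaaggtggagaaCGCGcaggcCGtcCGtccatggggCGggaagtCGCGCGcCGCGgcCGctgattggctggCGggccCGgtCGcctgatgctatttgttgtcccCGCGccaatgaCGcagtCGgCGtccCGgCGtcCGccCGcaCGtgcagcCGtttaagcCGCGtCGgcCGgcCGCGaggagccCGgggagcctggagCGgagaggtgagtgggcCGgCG
Rims1 (chr1:22806109-22806408, minus strand): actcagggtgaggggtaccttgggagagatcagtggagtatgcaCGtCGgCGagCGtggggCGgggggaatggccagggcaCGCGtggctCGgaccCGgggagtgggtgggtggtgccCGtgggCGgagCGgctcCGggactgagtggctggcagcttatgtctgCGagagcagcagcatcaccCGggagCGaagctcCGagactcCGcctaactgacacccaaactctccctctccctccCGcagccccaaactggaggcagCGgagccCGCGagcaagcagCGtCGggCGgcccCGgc
Sox1 (chr8:12395269-12395568, plus strand): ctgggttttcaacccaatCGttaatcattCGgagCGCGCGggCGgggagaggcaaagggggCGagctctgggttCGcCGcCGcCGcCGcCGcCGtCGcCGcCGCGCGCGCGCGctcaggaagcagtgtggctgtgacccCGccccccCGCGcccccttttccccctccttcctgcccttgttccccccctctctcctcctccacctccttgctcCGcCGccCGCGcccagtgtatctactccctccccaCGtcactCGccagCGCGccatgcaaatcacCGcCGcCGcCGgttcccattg
Srsf1 (chr11:88047123-88047422, plus strand): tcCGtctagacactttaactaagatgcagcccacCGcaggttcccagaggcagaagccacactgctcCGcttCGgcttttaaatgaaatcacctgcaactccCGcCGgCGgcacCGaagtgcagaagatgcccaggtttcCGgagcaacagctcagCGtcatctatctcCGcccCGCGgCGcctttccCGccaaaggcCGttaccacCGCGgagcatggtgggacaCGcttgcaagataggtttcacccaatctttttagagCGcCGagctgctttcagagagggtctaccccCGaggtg
Hnrnpu (chr1:178337766-178338065, minus strand): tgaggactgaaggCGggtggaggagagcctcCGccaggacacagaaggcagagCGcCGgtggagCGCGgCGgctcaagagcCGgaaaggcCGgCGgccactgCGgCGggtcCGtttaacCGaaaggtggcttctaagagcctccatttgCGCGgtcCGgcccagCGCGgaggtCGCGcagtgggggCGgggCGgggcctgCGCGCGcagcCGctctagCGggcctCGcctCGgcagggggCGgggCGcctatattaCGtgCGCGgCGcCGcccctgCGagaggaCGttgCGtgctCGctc
Ranbp1 (chr16:18248645-18248944, minus strand): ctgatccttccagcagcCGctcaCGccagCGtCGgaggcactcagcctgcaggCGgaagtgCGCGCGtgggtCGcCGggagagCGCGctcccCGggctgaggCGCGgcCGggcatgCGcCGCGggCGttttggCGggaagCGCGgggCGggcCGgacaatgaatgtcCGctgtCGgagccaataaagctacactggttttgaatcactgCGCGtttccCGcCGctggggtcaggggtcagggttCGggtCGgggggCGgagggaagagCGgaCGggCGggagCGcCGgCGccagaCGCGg

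These windows held between 15 CpGs (Sycp3) and 42 CpGs (Ranbp1). The lowest GC content was 57% (Sycp3) and the highest 72.7% (Hnrnpu). In the germline sequences the letters caCGtg form an E-box, which occurred at 2 places in Sycp3 and once each in Mael and Ddx4. The E2F motif GCGGGAA occurred in Sycp3, Ddx4, Srsf1 and Ranbp1. Each of the 8 windows held at least 1 GC box, GGGCGG, the motif of SP and KLF factors.

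The share of coding promoters without a site differed with CpG content. Of all 20807 coding promoters, 27.6% had no site, and of the 12574 that did not meet the CpG and GC limits 43.9% had none, against the 2.83% of CpG-rich promoters. Site-free promoters had the GC content of their accessible counterparts, with a median of 62.4% (interval 61.4 to 63.1%) against 62.5% in the 8000 CpG-rich promoters with a site. Their CpG ratio was lower, with a median of 0.738 (interval 0.718 to 0.775) against 0.798 (0.795 to 0.802). The window held a median of 72 CpGs against 77.

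Within the CpG-rich promoters, the share without a site was highest just above the CpG limit. It was 4.95% (86 of 1738) at ratios from 0.6 to 0.7 and 1.03% (4 of 387) at ratios of 1 and above, and these intervals did not overlap. Over the 3 bins between them it stayed between 2.13% and 2.53%. By GC content the share lay between 2.43% and 3.01% in 4 bins, and all of these intervals overlapped.

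**Figure D1:**
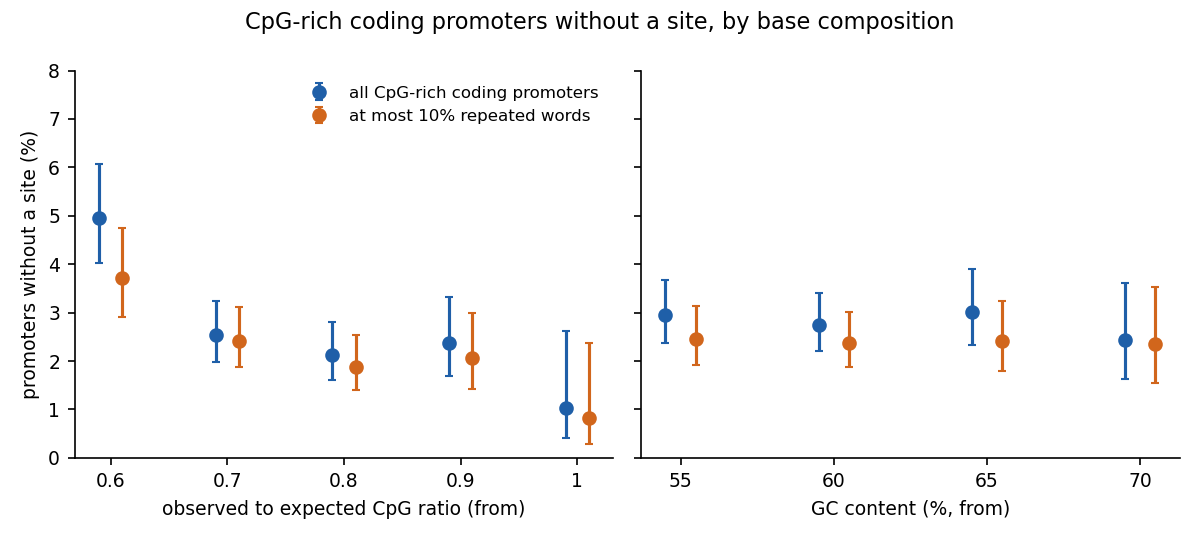
Share of CpG-rich coding promoters without a site (%, points, with 95% Wilson intervals as bars) by observed to expected CpG ratio (left) and GC content (right), each tick giving the lower bound of a bin. The share fell from 4.95% to 1.03% along the CpG ratio and stayed between 2.43% and 3.01% along GC content, and the promoters with little repeated sequence (orange) lay below all promoters (blue).

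The genes next to each limit of the rule differed little in the value that divided them. At the CpG limit, AC109138.7 (0.601), Gm3164 (0.601) and Mov10l1 (0.602) were just inside, and Lrrc3b (0.598), Mast3 (0.598) and Gm13290 (0.598), also without a site, were just outside. At the GC limit, Desi2 (55.04%), Srsf1 (55.2%) and Dbx1 (55.4%) were inside, whereas Pfn3 (54.9%), Ppp1r36 (54.9%) and Rpl10l (54.7%) were outside. The sites closest to a start of Plxdc1, Sox17 and Marc1 were 1005, 1009 and 1017 bp away, whereas Gm10775, Elavl3 and Ly6g6c had sites at 986, 965 and 958 bp. In all, 31 site-free promoters had a site between 1 and 2 kb from a start. A distance this close to the limit was rare among accessible promoters, since 7872 of 8000 (98.4%) had a site directly over a start and 27 only beyond 500 bp.

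Site-free promoters fell into 3 classes by their surroundings. In 41, more than 10% of the 50-base words of the window occurred elsewhere in the genome. Of the other 192, 90 shared a stretch between neighbouring sites with another site-free promoter, and 102 were the only one in their stretch. Among the CpG-rich promoters with little repeated sequence these 192 made up 2.41% of 7970.

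In the class with repeated sequence, every word was repeated in 24 of the 41 windows. Of 30 CpG-rich promoters in which every word was repeated, 24 (80.0%) had no site, and of the 263 with more than 10% repeated words 41 (15.6%) had none. Only 2.78% of the CpG-rich promoters with a site had more than 10% repeated words, compared with 17.6% of the site-free ones. The class included the histone genes Hist1h2ao, Hist1h2ap, Hist1h2bq and Hist1h2br, which encode histones H2A and H2B and lie in near-identical divergent pairs. The genes of the Golgi nucleotidases, Entpd4 and Entpd4b, together with Slc25a37, Gm16867 and Loxl2, filled a stretch of 450 kb on chromosome 14. Reads that fit several places are commonly set aside during filtering, and whether this was the reason for the missing sites was not tested. Of the 31 site-free promoters with a predicted or clone name, 22 belonged to this class. Chromosome 14, with the highest share of site-free promoters of any autosome (7.57%, 23 of 304), had 1.85% after promoters with repeated words had been left out.

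Among the unique promoters, 90 stood in groups. The median distance between neighbouring sites on the autosomes was 7.07 kb, and 1999 of 150064 such distances were 100 kb or more. A stretch that holds several site-free promoters is long by its choice. These 90 promoters lay in 27 site-free stretches of 115 to 1058 kb. Their genes included those of the splicing factors Srsf1 and Sf1, the RNA-binding protein Hnrnpu, the nuclear transport protein Ranbp1, the mitotic kinesin Kif11, the centriole kinase Plk4, the protein phosphatase subunit Ppp1ca and the respiratory chain subunits Ndufs3 and Uqcrc1. These genes were named after their values were seen, and the same stretches also held genes of specialised cells, such as Nrxn2, Celsr3, Rtn4r, Foxd3 and Mael. The CpG ratio of this class, with a median of 0.802, was close to that of accessible promoters (0.798), and higher than that of the lone site-free promoters (0.721) and of the repeated class (0.648).

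The longest groups held 7 neighbouring CpG-rich genes without a site. On chromosome 19 they were Atg2a, Ehd1, Cdc42bpg, Map4k2, Sf1, Rasgrp2 and Nrxn2, which lay in a stretch from 6182079 to 6814275 (632 kb) with 13 coding gene starts in all. Their CpG ratios reached from 0.615 at Nrxn2, a presynaptic adhesion protein gene, to 0.920 at Sf1, the branch point binding protein gene. On chromosome 15, a stretch of 536 kb (57981427 to 58517716) held 9130401M01Rik, Gm29394, Zhx1, Atad2, Wdyhv1, Fbxo32 and Fam91a1 among 10 coding genes. Atad2, which encodes a bromodomain ATPase of proliferating cells, had a CpG ratio of 0.946 and its nearest site at 154 kb. Fbxo32, an E3 ligase gene of muscle wasting, had a ratio of 0.720 and its nearest site at 234 kb.

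The third group was Rtn4r, Zdhhc8, Trmt2a, Ranbp1, Dgcr8 and Arvcf on chromosome 16, in a stretch of 506 kb (17987167 to 18492779) with 13 coding genes. Rtn4r, the Nogo receptor gene, had a CpG ratio of 0.963, and Dgcr8, which encodes the partner of Drosha in microRNA processing, had 0.928. Trmt2a and Ranbp1 share a divergent promoter, with ratios of 0.890 and 0.897 and a nearest site at 244 kb. The window of Dgcr8 had 14.3% repeated words, so that this gene counted in the repeated class.

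Sites were also counted right beside such stretches. In the 200 kb beyond each end of the 26 stretches with at least 2 unique site-free promoters, the median number of sites was 21 (quartiles 18 and 25, range 1 to 40 over 52 flanks), the site that ended the stretch included. Genes that start within a stretch have few sites by its definition, whatever their composition. Whether the list of positions is complete in these blocks, and whether the cells carry them in full copy number, was not tested, so that for these 90 promoters the lack of a site is a property of the list.

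**Figure D2:**
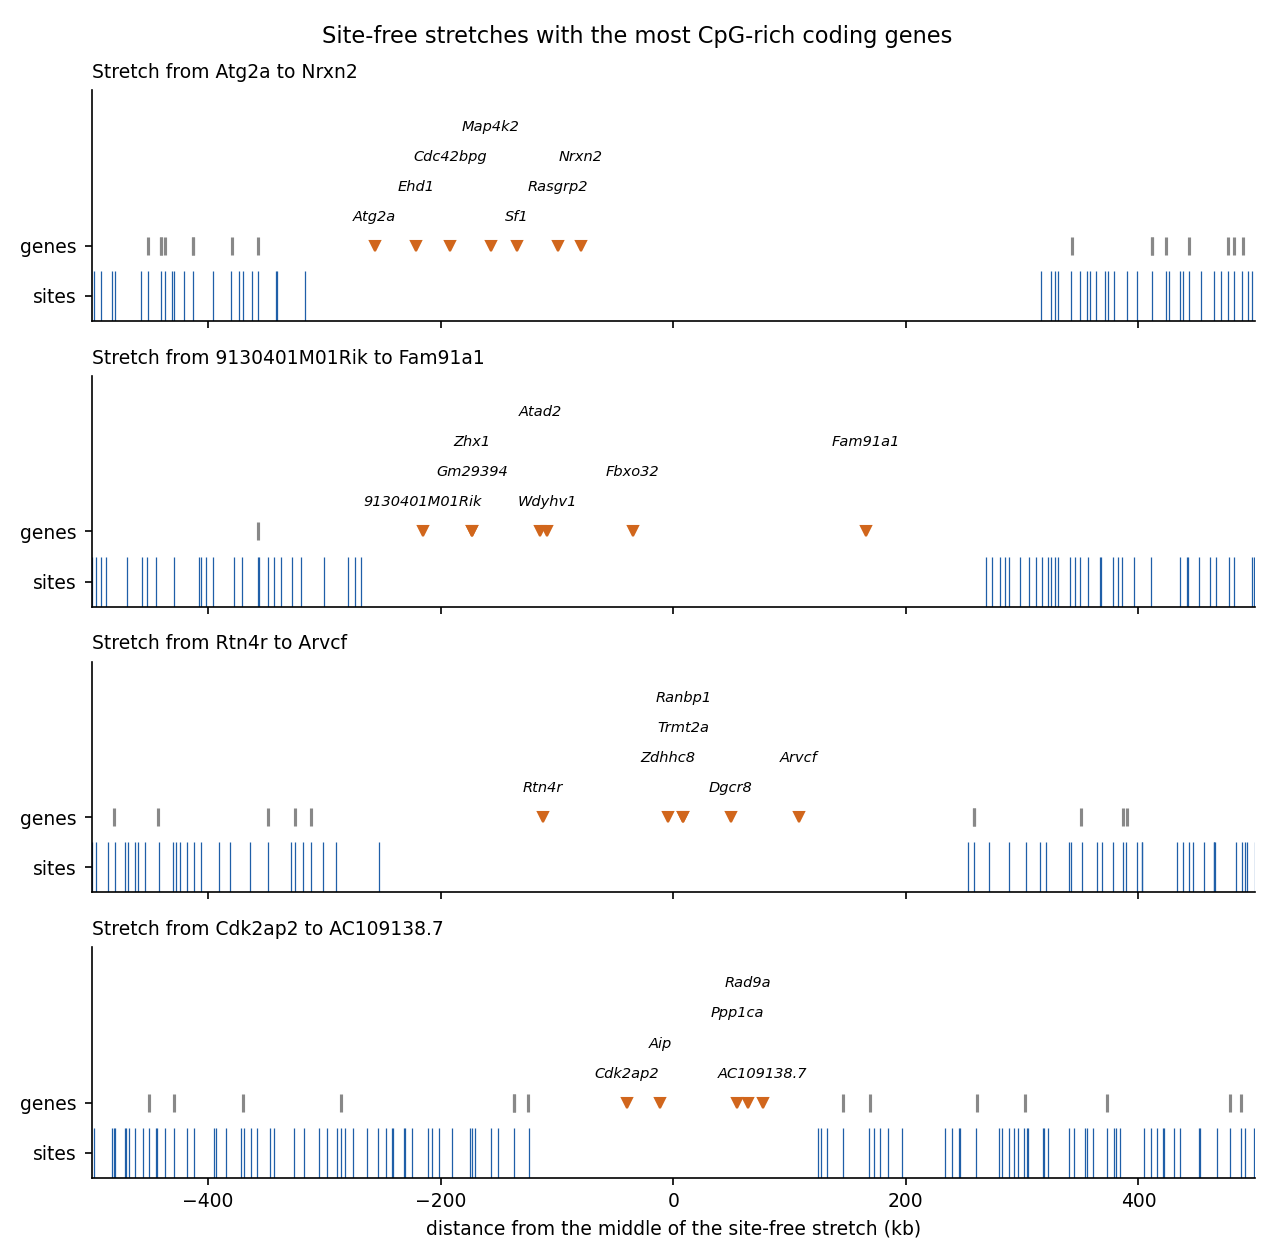
Maps of 4 site-free stretches, with the distance from the middle of each in kb, sites as blue lines, CpG-rich coding genes without a site as orange triangles at their 5′ ends and those with a site as grey bars. The stretches of 632, 536, 506 and 248 kb hold 7, 7, 6 and 5 such genes, and sites are dense up to both ends of each stretch.

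Smaller blocks had the same form. Srsf1, Vezf1 and Mrps23 lay in 339 kb without a site, and Srsf1 had a CpG ratio of 0.986 with its nearest site at 59.5 kb. Nrbf2, Egr2 and Ado lay in 439 kb, and Ado, which encodes cysteamine dioxygenase, had the highest CpG ratio of all site-free promoters (1.07). Hnrnpu, with a ratio of 1.02, shared 385 kb with Desi2 and Cox20. Jund, Rab3a, Mpv17l2, Pik3r2 and Arrdc2 shared 175 kb on chromosome 8, among them Jund, a subunit gene of the AP-1 transcription factor. Foxp4, Nfya and Oard1 shared 1017 kb on chromosome 17, and Nfya, the gene of the DNA-binding subunit of the CCAAT-box factor, and its divergent neighbour Oard1 were 496 kb from the nearest site. Counted along chromosomes, 104 of the site-free promoters stood between CpG-rich neighbours with a site, and 129 formed 38 runs of at least 2. Of the 28 runs of at least 3, with 109 genes, 18 runs with 71 genes contained no promoter with repeated words.

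**Figure D3:**
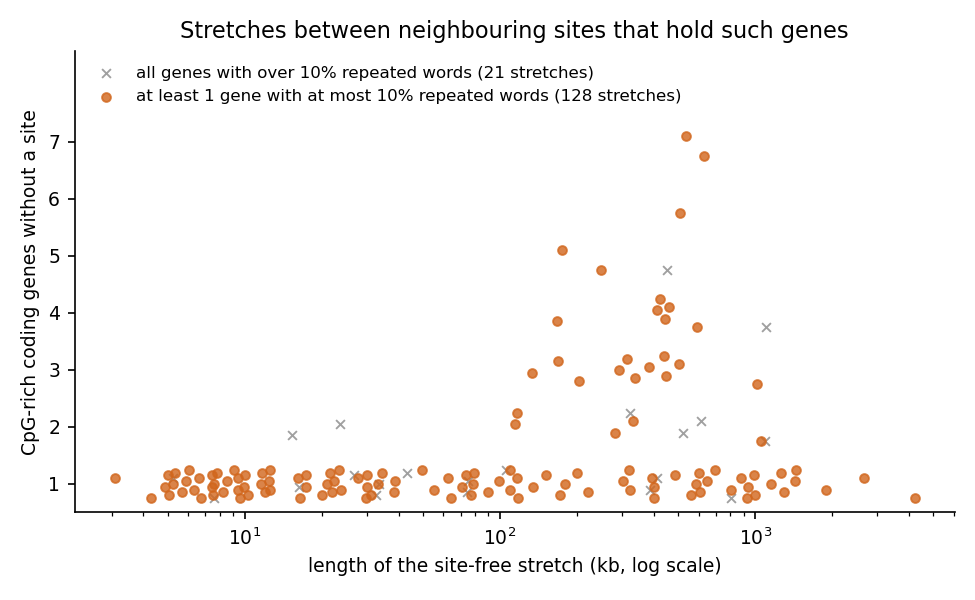
Number of CpG-rich coding genes without a site (vertical) by the length of the site-free stretch that holds them (kb, log scale), with points of the same number moved slightly apart. Stretches with at least 1 unique promoter (orange circles) hold up to 7 genes at 536 and 632 kb, whereas most single genes are spread over all lengths.

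Sites outside the window used for the selection were counted as well. Between 5 and 50 kb from the 5′ end, site-free promoters had a median of 0 sites (interval 0 to 1, upper quartile 5, highest 30), CpG-rich promoters with a site had 9 (9 to 9), and CpG-poor promoters without a site had 3 (3 to 3). No site at all was found there in 125 of 233 (53.6%, interval 47.2 to 59.9%), compared with 1.14% and 30.6% in the other groups. These values differed between the classes. No site 5 to 50 kb away was found for 70 of the 90 promoters in shared stretches, for 24 of the 41 with repeated words and for 31 of the 102 lone promoters, whose median was 3 sites, as in the CpG-poor group. Among promoters with little repeated sequence the corresponding shares were 52.6%, 1.04% and 23.7%. The distance from the 5′ end to the nearest site had a median of 54.7 kb (interval 35.4 to 71.1 kb, quartiles 4.57 and 134 kb). In CpG-poor promoters without a site this median was 14.1 kb. For 108 site-free promoters (46.4%) no site lay within 50 kb of any start, and for 64 none within 100 kb, whereas 70 (30.0%) had a site within 5 kb. A site in the gene body, more than 1 kb from every start, was found in 67 of 207 site-free genes with enough body (32.4%), compared with 70.9% of accessible CpG-rich genes and 31.6% of CpG-poor genes without a promoter site. By class this was 58 of 94 lone genes, 5 of 83 in shared stretches and 4 of 30 with repeated words. The pooled 32.4% therefore describes none of the classes. Gene length differed as well, with medians of 21.4 kb, 28.1 kb and 7.37 kb in the 3 groups.

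**Figure D4:**
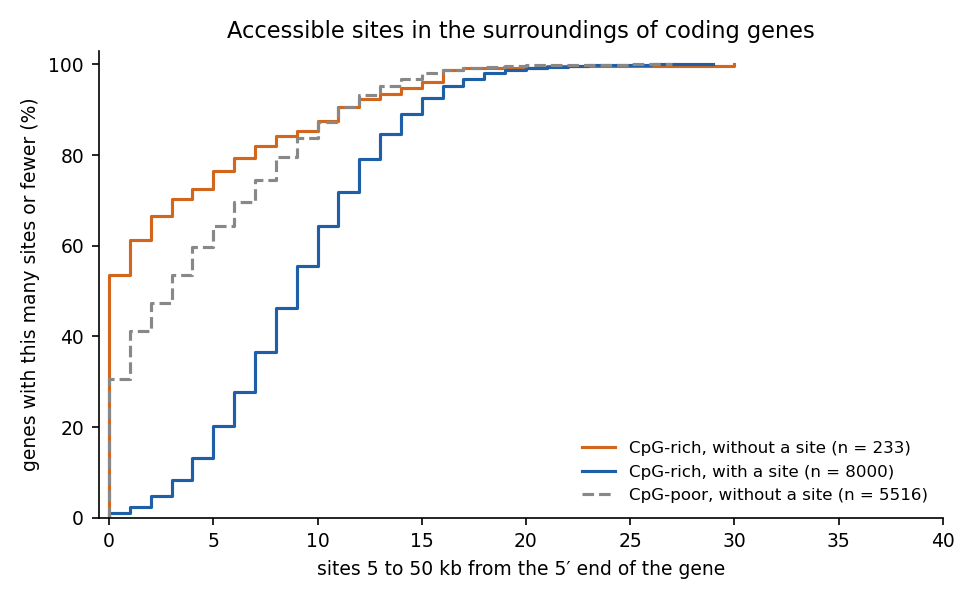
Cumulative share of genes (%) by the number of sites 5 to 50 kb from their 5′ end, for CpG-rich promoters without a site (orange), CpG-rich promoters with a site (blue) and CpG-poor promoters without a site (grey, dashed). The orange curve starts at 53.6% with no site, the grey curve at 30.6% and the blue curve at 1.14%.

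The 102 lone site-free promoters covered both extremes. They were 4.69 kb from the nearest site in the median, and 26 lay in stretches below 10 kb. Most sites in the surroundings were found at Hoxa6 (30 sites 5 to 50 kb away), a homeobox gene within the HoxA cluster, with its nearest site at 2.45 kb. It was followed by Plxdc1 (21), the forkhead gene Foxl1 (17), the small GTPase gene Rem1 (16) and the fucosyltransferase gene Sec1 (16). These 5 promoters were without a site in neighbourhoods denser than the median of accessible promoters (9). Nnat, an imprinted gene within an intron of Blcap, also belonged to this class, with a CpG ratio of 0.866 and its nearest site at 3.52 kb, and was named after its values were seen.

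At the other end, 29 lone promoters lay in stretches of at least 200 kb. Their genes were long, with a median length of 223 kb, compared with 5.50 kb in the stretches below 10 kb. Farthest from any site was Cdh8, the gene of a neuronal cadherin, with 1356 kb to the nearest site in a stretch of 4222 kb. Auts2, which is linked to neurodevelopmental disorders, followed with 1218 kb and a CpG ratio of 0.981, and Csmd2 with 568 kb. Other annotated starts were closer, at 130055 bp from a site for Auts2, which has 20 starts, and at 23081 bp for Csmd2. The 8 most distant also included Oard1 and Nfya (496 kb each), which shared a stretch with Foxp4 and were not lone promoters. The leucine-rich repeat gene Lrrn1 (475 kb), the sialyltransferase gene St6gal2 (433 kb) and the GABA-A receptor gene Gabra2 (406 kb) completed the 8. Promoters with more than 10% repeated words or a predicted name were left out of this ranking. The CpG ratio did not follow this distance in a simple way, since Gabra2 had 0.649 and Sdk1, a synaptic adhesion gene at 368 kb, had 0.981. Further high CpG ratios were found at Cadps2 (1.05), which acts in the release of dense-core vesicles, at the zinc transporter gene Slc30a4 (0.996), at Dchs1 (0.989), a giant cadherin gene, and at the T-type calcium channel gene Cacna1i (0.951).

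Of the 7 gene lists, the germline list had the highest share without a site. Of 24 CpG-rich genes in a list of 61 genes of meiosis and the piRNA pathway, 11 were without a site (45.8%, interval 27.9 to 64.9%), compared with 2.83% of all CpG-rich promoters. They were the synaptonemal complex genes Sycp1, Sycp2 and Sycp3, the piRNA pathway genes Ddx4, Mael, Tdrd1, Mov10l1 and Fkbp6, the testis genes Stk31 and D1Pas1, and Slc25a31, which encodes the ADP/ATP carrier of germ cells. All 11 windows were free of repeated words. The CpG ratio lay between 0.602 (Mov10l1) and 0.765 (Fkbp6), each below the median of accessible promoters (0.798). With at least 60% GC and a CpG ratio of 0.75 the share of the germline list was 0, that of the neuronal list 12.5% and that of lineage factors 7.69%. Only Boll, Meiob, Stag3 and Tdrd5 of the germline list met these limits. Rbfox1 was the only site-free neuronal gene that did. With so few genes a change of rank cannot be read from these shares.

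Most of these germline promoters had sites nearby. The distance to the nearest site was 1.13 kb at Mov10l1 and 1.14 kb at Sycp3. It was between 2.69 and 5.06 kb at Stk31, Fkbp6, D1Pas1, Tdrd1, Ddx4 and Sycp2, and 9.72 kb at Sycp1. Mael, at 45.9 kb, and Slc25a31, at 204 kb in the same stretch as Plk4, were the only germline genes in stretches with other site-free promoters. Tdrd1 and Mov10l1 had 14 sites each between 5 and 50 kb away, and Ddx4 and Fkbp6 had 11 each. The 13 germline genes with a site included Dazl, Boll, Dmc1, Prdm9, Smc1b, Stag3, Tdrd5 and Tdrd6, so that this function was found on both sides.

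The E-box CACGTG, which is read by MAX and its partners, among them the MGA protein that acts on germline promoters in somatic cells, was found in the windows of 11 of 11 site-free germline genes (interval 74.1 to 100%). It was found in 6 of 13 germline genes with a site (46.2%), in 57 of 222 other site-free promoters (25.7%) and in 22.6% of CpG-rich promoters with a site. The first base of the nearest E-box was within 250 bp of the 5′ end in 9 of the 11. It lay 11 bp before the 5′ end at Tdrd1, 25 bp before it at Sycp3, 37 bp before it at Fkbp6 and 77 bp before it at Slc25a31, and was 365 bp before it at Sycp2. The E2F motif GCGGGAA was found in 3 of 11 germline genes without a site (Ddx4, Slc25a31 and Sycp3), in 7 of 13 with a site and in 27.4% of CpG-rich promoters with a site. These motif counts in germline genes were made after the list had been counted, and a match is no measure of binding.

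Among the lists, the neuronal one had the second highest share. Of 22 CpG-rich genes in the list, 4 were without a site (18.2%, interval 7.31 to 38.5%), namely the cadherin gene Celsr3, the neurexin gene Nrxn2, the splicing regulator gene Rbfox1 and Rims1, a scaffold of the presynaptic active zone. Rims1 lay in a site-free stretch of 940 kb, 256 kb from the nearest site. Rbfox1, of 1526 kb in length, had 53 sites in its gene body. Its 5′ end was 133 kb from a site, and the closest of its other starts 1194 bp. Celsr3 and Nrxn2 belonged to blocks with Uqcrc1 and with Sf1, as given above. In families defined by gene symbols, 3 of 11 GABA and glycine receptor genes (Gabra2, Gabra5 and Gabrg3) were without a site (27.3%, interval 9.75 to 56.6%). So were 2 of 13 cadherins and protocadherins outside the clusters (Cdh4 and Cdh8, 15.4%, interval 4.33 to 42.2%). Both intervals lay above the 2.83% of all CpG-rich promoters, with few genes in each family. Gabra5 and Gabrg3 are neighbours on chromosome 7 with sites at 3.05 and 2.68 kb, unlike Gabra2. By contrast, 1 of 10 glutamate receptor genes (Grik3) and 0 of 13 amine and acetylcholine receptor genes were without a site. The intervals of the glutamate receptor family and of the amine and acetylcholine receptor family included 2.83%.

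For lineage factors, the interval included the share of all CpG-rich promoters. Of 66 CpG-rich lineage factor genes, 3 (4.55%, interval 1.56 to 12.5%, against 2.83%) were without a site, which were Sox1 of neural progenitors, Sox17 of endoderm and Cdx1 of the intestine. Each of them had a site 1 to 3 kb from a start, at 1630 bp for Sox1, 1009 bp for Sox17 and 2693 bp for Cdx1. Among Sox and Fox genes 5 of 42 were without a site (11.9%, lower bound 5.19%), namely Foxd3, Foxl1, Foxp4, Sox1 and Sox17, and Hoxa6 was the 1 of 20 Hox genes. Of 19 Fgf and Wnt genes none was without a site (upper bound 16.8%).

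For cytosolic ribosomal protein, proteasome and complex I genes, the intervals included the 2.83% of all CpG-rich promoters. There were 0 site-free promoters among 56 cytosolic ribosomal protein genes (upper bound 6.42%) and 0 among 24 proteasome genes (upper bound 13.8%). Among complex I genes, Ndufs3 was the 1 of 26, in the block of 205 kb that it shared with Kbtbd4 and Celf1. Of 143 solute carrier genes 8 were without a site (5.59%, interval 2.86 to 10.65%), including Slc22a3, Slc25a31, Slc25a32 and Slc25a37. Of 132 zinc finger genes named Zfp 2 were (Zfp503 and Zfp541). Of 37 histone genes 4 were without a site (10.8%, interval 4.29 to 24.7%), all of them in the repeated class. The interval of the histone family lay above 2.83%, and that of the solute carriers began at 2.86%, only just above it. Of the 8 solute carrier genes, Slc25a37 belonged to the repeated class. Slc25a31 and Slc25a32 lay in stretches shared with other site-free promoters, so that this family cannot be told apart from all CpG-rich promoters. Smaller counts were 2 of 24 testis and sperm genes by name (Tdrd1 and Tex12), 1 of 28 orphan G protein coupled receptor genes (Gpr12), 1 of 17 aldehyde and cytochrome enzyme genes (Cyp2u1) and 0 of 2 clustered protocadherin genes.

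**Figure D5:**
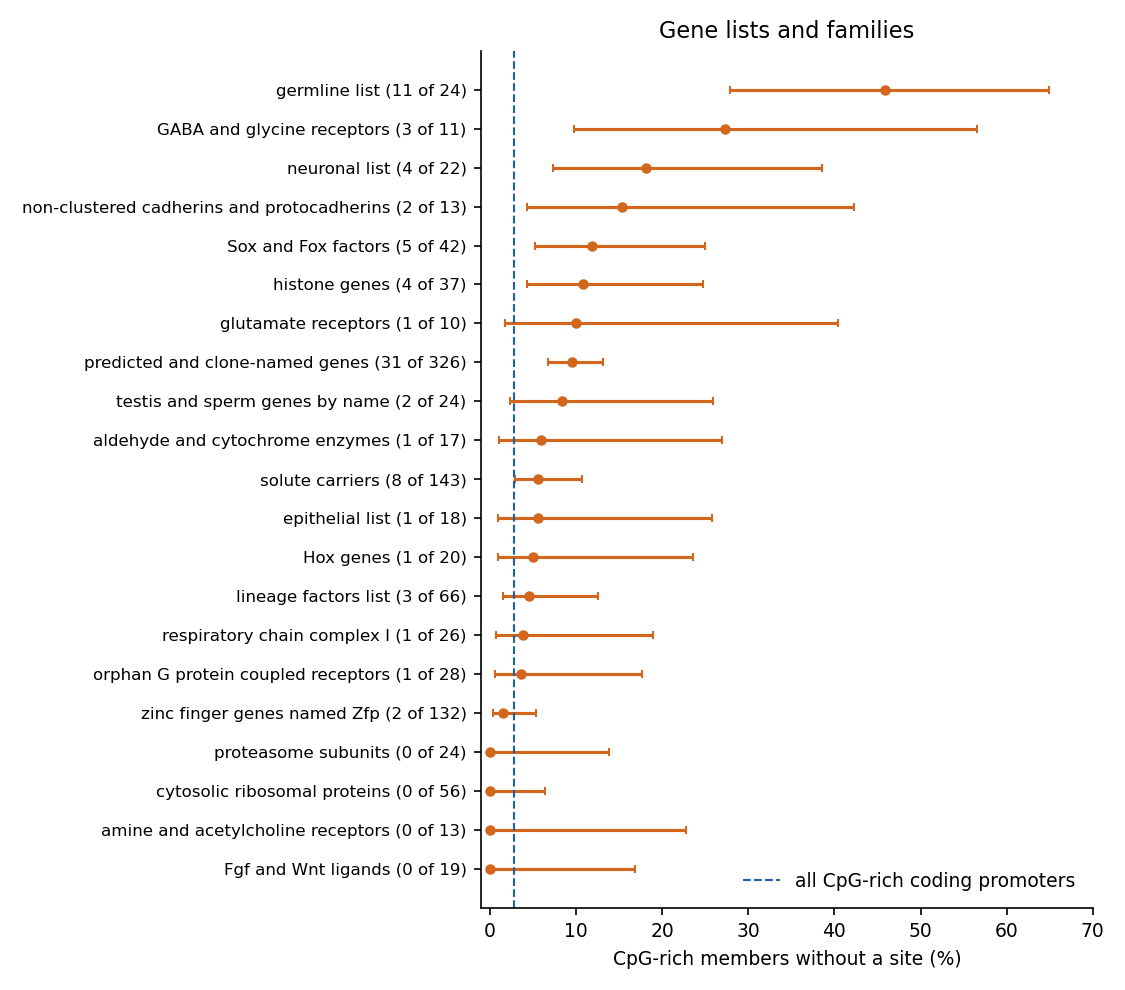
Share of CpG-rich genes without a site (%, points, with 95% Wilson intervals as bars) in gene lists and in the symbol families reported here with at least 10 CpG-rich genes, with counts in brackets. The germline list is highest with 45.8%, and the dashed line marks the 2.83% of all CpG-rich coding promoters.

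Cell type markers were read for all compositions. Of 20 fibroblast markers 18 had a promoter site, the exceptions being the CpG-poor genes Lum and Tcf21, and all 4 CpG-rich markers had one. Among endothelial and blood markers, all 3 CpG-rich genes had a site and 7 of 14 CpG-poor genes had none. Among CpG-poor markers, 2 of 16 fibroblast, 2 of 33 neuronal, 5 of 22 epithelial and 19 of 37 germline genes had none. For CpG-poor lineage factors it was 15 of 50. Of all CpG-poor coding promoters 43.9% had none. The germline and the endothelial and blood counts lay near that share, and the other counts lay below it. Promoter sites did not set fibroblast markers apart from neuronal ones. Of 18 CpG-rich epithelial genes, 1 was without a site, the tricellular junction gene Marveld2 (CpG ratio 0.927, nearest site at 21.3 kb). None of the 7 CpG-rich growth arrest genes was without a site (upper bound 35.4%). The intervals of the CpG-rich fibroblast, endothelial and blood, epithelial and growth arrest genes all included the 2.83% of all CpG-rich promoters. In all, 19 of the 233 site-free promoters belonged to 1 of the 7 lists.

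Of the short sequence motifs, the E-box was found in 29.2% of site-free windows (interval 23.7 to 35.3%) and in 22.6% of accessible ones (21.7 to 23.6%), and these intervals did not overlap. For the other 10 motifs they did. For the E-box they also did when the site-free windows had at most 10% repeated words (29.2%, 23.2 to 35.95%). The same held for site-free promoters outside the germline list (25.7%, 20.4 to 31.8%). The GC box GGGCGG was found in 94.4% of site-free windows and in 95.1% of accessible ones, whereas 61.4% of all coding promoters had it. The CCAAT box was found in 63.5% and 62.2%, and the TATA box in 13.7% and 15.0%, against 32.2% in all coding promoters. The NRF1 motif GCGCATGCG was found in 3.43% and 5.38%. The YY1 motif AAGATGGCG was found in 7 of 233 site-free windows and in 6.45% of accessible ones, and in 0 of the 102 lone promoters against 5.56% of those in shared stretches. The ETS motif CCGGAAGT was found in 6.86% of lone promoters, 16.7% of those in shared stretches and 11.6% of accessible ones, and the intervals of lone and shared promoters overlapped for both motifs. All motifs were searched on both strands of the 500 bp either side of the 5′ end, and a window without the letters may still be bound.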

How the data were processed

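ATAC-seq was performed on 10 libraries (5 groups with 2 replicates each). For the deposited positions, the authors passed reads through Trim Galore, BWA (genome mm10) and SAMtools, joined the replicates of a group in Picard, and took narrow peaks from MACS. Further tools named in the submitters' processing notes are deepTools and DESeq2. The paper adds that unusable reads were filtered out following Encode, and that modified parts of nf-core code were used. Versions, the peak threshold, any explicit handling of multi-mapping reads, the transposase shift, and how peaks of different samples were joined were not given in the sources used here. The deposited table holds positions (chromosome, start, end) of sites pooled over all samples, with no counts or other values per library. Starts were taken as 0-based. Reads, signal tracks and differential sites were not analysed here.

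Gene records and transcript starts came from GENCODE M21 (mm10), and GC content and CpG ratio from the GRCm38.p6 sequence. The share of 50-base words of each window that occur elsewhere in the genome, on either strand, was counted. A site-free stretch was the interval between neighbouring sites. Shares carry 95% Wilson intervals and medians order-statistic intervals. Python 3.11.15, NumPy 2.4.6, SciPy 1.17.1, pandas 2.3.3, Numba 0.67.0 and Matplotlib 3.10.9 were used. The search was tested on simulated sites, of which 5710 planted at 8233 real CpG-rich promoters were all recovered. This checked the overlap search only and cannot tell whether the list of positions lacks sites. Since no value per library exists, no test between groups or replicates was made.

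The site-free promoters, the 7 gene lists, the 20 symbol families and the 11 motifs were chosen with earlier results of these data known. Genes were named as the 10 with the highest CpG ratio, the 8 farthest from a site and the 5 with most sites 5 to 50 kb away (each with at most 10% repeated words and no predicted name), the genes of the 3 longest runs, members of the lists, the 3 genes on either side of each limit, and up to 4 examples per family in alphabetical order. The results of 2 of the families are not reported here. Other genes are marked as named after their values were seen or stand as neighbours of named genes. The 10 alternatives covered the window around starts, which starts were used, the CpG and GC limits, the site width, repeated sequence, predicted names and the annotation.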

Additional observations from a re-analysis of the deposited data

Results flagged for a closer look

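Chromosome X, which the choice of promoters left out, held CpG-rich coding promoters without a site as well. Of 172 CpG-rich coding genes of chromosome X, 14 had no site within 1 kb of any start (8.14%, 95% Wilson interval 4.91 to 13.2%), and this interval did not overlap that of the autosomes (2.49 to 3.21%). They included the neural factor gene Sox3, the neuronal genes Slitrk4 and Gpr101, the paralogues Dcaf12l1 and Dcaf12l2, Bex2 and Bex4, and the germline homeobox gene Rhox13, all named after their values were seen. In 4 of the 14, more than 10% of the words of the window were repeated elsewhere. The number of X chromosomes in these cells and its part in this share were not tested.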

How the results depend on the processing

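No paired analysis was possible because site positions were pooled over all libraries, and leaving out a replicate could not be done for the same reason. Over the 10 alternatives the number of site-free promoters lay between 84 and 349 (233 as reported). With limits of 60% GC and a CpG ratio of 0.75 it was 84, or 2.07% of CpG-rich promoters, with a median CpG ratio of 0.855, and the share of the germline list was 0, because each of its 11 site-free genes lay below at least 1 of these limits. The share of site-free promoters was 2.45% with 2 kb either side of the starts, 4.24% when only sites of at least the median width of 619 bp counted, and 2.41% with at most 10% repeated words. The median CpG ratio was 0.777 when CpG and GC were measured over 250 bp either side. With other window sizes, starts and annotations the germline share stayed between 37.5% and 52.4%. The share of lineage factor genes without a site was 1.52% with 2 kb and 15.2% with wide sites only, against 4.55% as reported. That of epithelial genes was 11.1% with 500 bp, 16.7% with wide sites only and 0 with the stricter limits, against 5.56%. With RefSeq genes 211 promoters were site-free, of which 151 had the same symbol (64.8% of those reported and 71.6% of the RefSeq ones). Read depth limits which sites can be called, and it is unknown here.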

Other observations

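Several further site-free promoters, all named after their values were seen and none of them in the lists, belong to genes of the testis or of development. Genes of the testis were Hsf5, Zfp541, Papolb, Rbmxl2, Prss50, Adad1, Tex12 and Rnf212. The imprinted genes Nnat and Nap1l5 lie within the host genes Blcap and Herc3, and both were without a site. Developmental regulators were Dbx1, Barx1, Hmx1, Fev, Hes5, Skor2, Hhex and Zfp503. Hhex shared its stretch with March5 and Kif11. At Zfp503 a site lay 1082 bp from the start, just beyond the limit. By ChIP-qPCR the paper reports a loss of FKBP-HA2-ASH2L from the Zfp503 promoter after dTAG-13, so that the lack of a site there does not show a closed promoter. These names are given as an account of the members, with no count against other genes of the same kind.

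By chromosome, the share of CpG-rich promoters without a site was lowest on chromosome 11 (1.13%, 8 of 706). It was 5.32% on chromosome 19 (16 of 301) and 4.05% on chromosome 15 (15 of 370), where blocks of neighbouring genes held 7 site-free promoters each.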
